A study of Mus musculus with 6 samples.

Results

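Enzymes that process foreign compounds were followed in mouse fibroblasts treated with TGFβ. The genes were taken by symbol: soluble glutathione transferases (*Gst*, mostly cytosolic, with the kappa class of mitochondria and peroxisomes counted among them), microsomal glutathione transferases (*Mgst*), cytochromes P450 (*Cyp*, without the *Cyp26* genes), UDP-glucuronosyltransferases (*Ugt*), carboxylesterases (*Ces*), sulfotransferases (*Sult*) and epoxide hydrolases (*Ephx*). The symbol patterns also left out *Cyp51*, a cytochrome P450, and *Gstz1*, a glutathione transferase. These were counted with the other enzymes in the lists of related genes. Of the 25140 genes listed, 91 matched, and 34 of these were selected on a mean raw count of at least 50 over the 6 libraries. These 34 genes comprised 13 soluble glutathione transferases, 2 microsomal glutathione transferases, 15 cytochromes P450, 2 epoxide hydrolases, 1 carboxylesterase and 1 glucuronosyltransferase, and no sulfotransferase.

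RNA-seq was performed on 3 libraries of vehicle-treated fibroblasts and 3 of fibroblasts given 10 ng/mL TGFβ for 24 h, to follow transcription during the differentiation of fibroblasts to myofibroblasts. By the sample labels the cells were primary cardiac fibroblasts of C57BL/6 mice, taken from adult heart and used at passage 1. The paper's methods also name cardiac fibroblasts for the RNA-seq, whereas its results call the cells mouse embryonic fibroblasts. Both groups were grown in medium with 25 mM glucose and 10% FBS and moved to 1% FBS before treatment, for 16 h by the labels and 24 h by the paper's methods. The paper's methods call the 3 libraries of a group biological replicates without saying whether they came from separate animals or cultures, so the p-values measure the spread between these libraries. Values per library follow the order of 31072338, 29296570 and 29331999 counts for vehicle and of 27851677, 28894151 and 28641986 counts for TGFβ.

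Foreign compounds are commonly cleared in stages. Cytochromes P450 oxidize them, epoxide hydrolases and carboxylesterases hydrolyse them, and glutathione transferases, glucuronosyltransferases and sulfotransferases attach a polar group that lets transporters export the product. Many of these enzymes also act on the cell's own sterols, fatty acids and lipid peroxides. Liver carries the largest set, while fibroblasts express a narrower one.

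The libraries held 27851677 to 31072338 counts, and no pair of replicates differed by as little as counting noise. All 10 fibroblast markers averaged at least 1 CPM (counts per library total, scaled by TMM factors, as edgeR gives them), and together they took 53481 to 63310 CPM with vehicle and 49901 to 55762 CPM with TGFβ, with 8 of the 10 lower with TGFβ past the threshold. Markers of endothelial cells were also present, at 419 to 645 CPM with vehicle and 383 to 524 CPM with TGFβ, as were those of leukocytes, at 241 to 344 CPM and 209 to 312 CPM, and none of these 12 genes passed the test. Of the 6 cardiomyocyte markers 1 reached a mean of 1 CPM. Of the 5 hepatocyte markers *Alb*, *Ttr* and *Serpina1a* were not among the genes listed, and the others summed to at most 0.0366 CPM in any library. Pericyte markers summed to 224 to 255 CPM with vehicle and 115 to 142 CPM with TGFβ, a difference made by *Notch3* (log2 fold change -1.85), while *Cspg4* rose (1.45) and the other 3 did not pass. Mesothelial markers summed to 23.7 to 77.0 CPM and 14.6 to 34.3 CPM. The part of these other cell types in the results was not tested, and in bulk RNA fewer cells of a type and less RNA per cell cannot be told apart.

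Most of the changes ran towards lower expression. With TGFβ, 18 of the 34 genes were lower and 3 were higher at an adjusted p under 0.05 (quasi-likelihood test of edgeR, Benjamini-Hochberg adjustment over all genes tested), and 13 did not pass. Over all 14334 genes tested, 20.1% were called lower and 20.5% higher. The median log2 fold change was -0.41 over the 34 genes and -0.0013 over all genes tested, and among the 11960 genes with a mean count of at least 50 it was 0.0092, with 21.4% lower and 23.3% higher. A fall of 1 or more on the log2 scale was called in 7 of the 34, against 4.36% of all genes. In 18 of the 34 every TGFβ library lay below every vehicle library, and in 4 every one lay above, while 26.1% and 27.2% of all genes showed these patterns. The 34 genes were chosen with earlier results of these data known, so these counts and medians are a description only.

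*Gstm7* exceeded the minimum count only through the vehicle libraries, so its place in the set depends on its difference. Without it, 17 of 33 genes were lower, 6 of them by 1 or more on the log2 scale, 3 were higher and the median log2 fold change was -0.39. At the edge of the minimum, *Cyp2r1* (mean count 65.7) and *Gstm7* (84.3) were just inside, and *Ces2e* (49.0) and *Gsto2* (27.8) just outside.

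**Figure D1:**
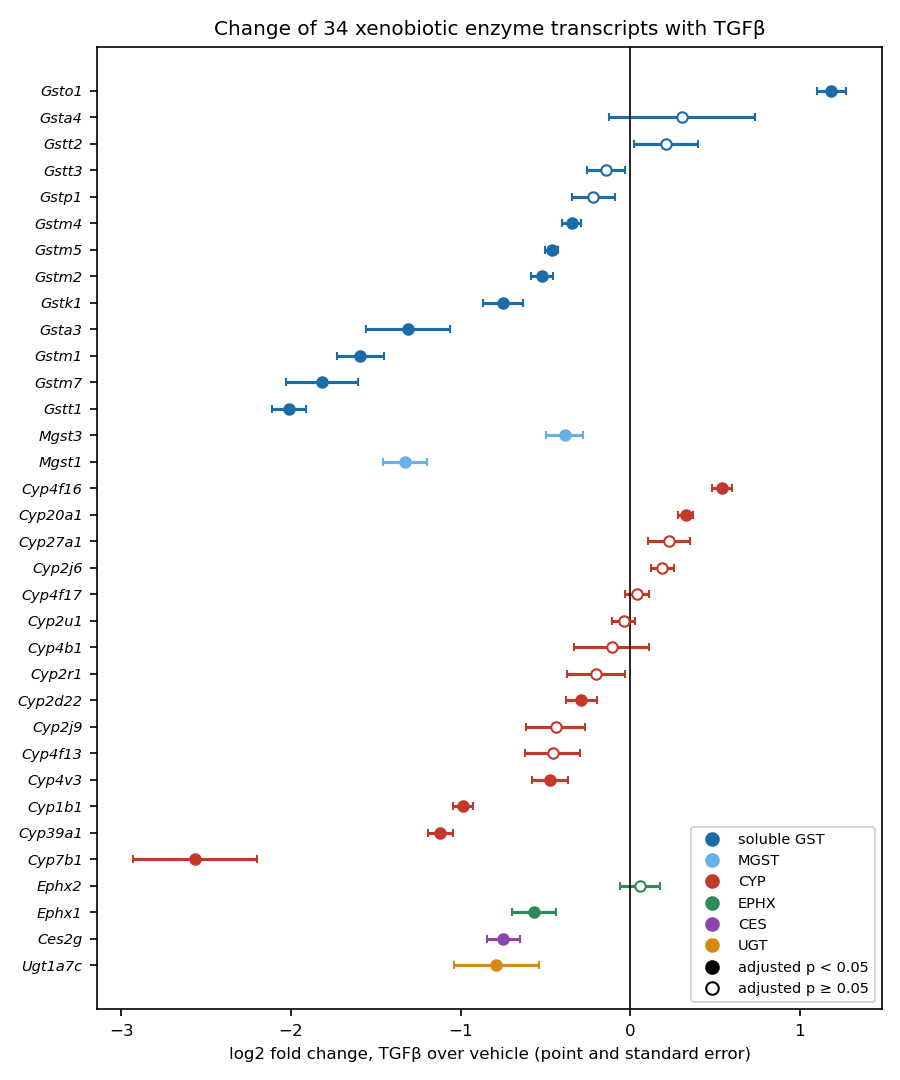
Log2 fold change of TGFβ over vehicle (x axis, point and standard error) for the 34 genes, grouped by enzyme class; filled points passed an adjusted p of 0.05 in edgeR's test. Points run from -2.57 for *Cyp7b1* to 1.19 for *Gsto1*, with 18 filled points left of 0 and 3 right of it.

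The mu class of soluble glutathione transferases conjugates glutathione to epoxides and other electrophiles. All 5 of the selected *Gstm* genes were called lower, against 21.4% of all tested genes with a mean count of at least 50. *Gstm7* was selected only through its vehicle libraries, so its fall is given as a value and not as support for the class. The 5 genes lie within 149 kb of chromosome 3 in the mouse build GRCm38 (GENCODE M21 annotation). *Gstm5* is on the plus strand and *Gstm7*, *Gstm2*, *Gstm1* and *Gstm4* are on the minus strand. The 120 bases before the annotated exons of each, from the RefSeq promoter table for GRCm38.p6, are shown because neighbours of 1 gene cluster changed by different amounts.
Gstm5 (chr3:107895701-107895820, plus strand): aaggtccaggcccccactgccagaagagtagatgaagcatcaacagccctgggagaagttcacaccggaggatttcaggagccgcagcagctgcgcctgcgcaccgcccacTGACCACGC
Gstm7 (chr3:107931818-107931937, minus strand): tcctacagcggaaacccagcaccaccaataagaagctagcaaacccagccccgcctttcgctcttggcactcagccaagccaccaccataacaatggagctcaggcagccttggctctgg
Gstm2 (chr3:107986454-107986573, minus strand): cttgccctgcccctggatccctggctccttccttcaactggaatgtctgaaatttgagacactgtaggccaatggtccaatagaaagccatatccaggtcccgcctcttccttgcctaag
Gstm1 (chr3:108017974-108018093, minus strand): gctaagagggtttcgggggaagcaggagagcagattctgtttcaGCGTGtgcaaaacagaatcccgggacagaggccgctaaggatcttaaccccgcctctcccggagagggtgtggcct
Gstm4 (chr3:108044895-108045014, minus strand): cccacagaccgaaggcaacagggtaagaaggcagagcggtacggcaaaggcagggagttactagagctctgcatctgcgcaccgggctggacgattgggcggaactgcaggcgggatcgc
Each is written 5′ to 3′ on the strand of its gene. Capitals mark matches, on either strand, to GCGTG, the core bound by the aryl hydrocarbon receptor with ARNT, or to TGACNNNGC, the core of the antioxidant response element bound by NRF2. Within the stretches printed, a match to each overlaps the other in *Gstm5*, and in *Gstm1* the match is GCGTG. The 250 bases searched before each start held further matches outside these stretches. They were a GCGTG in *Gstm5* and, before another annotated start of *Gstm7*, a TGACNNNGC.

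*Gstm1* had 107, 126 and 94.4 CPM in the vehicle libraries and 37.1, 41.5 and 29.7 CPM in the TGFβ libraries. The groups did not overlap, and the mean fell from 109 ± 15.7 CPM (SD, n = 3) to 36.1 ± 5.96 CPM. Its log2 fold change was -1.59 (standard error 0.14, edgeR adjusted p = 0.000115). Reads could be shared with other genes at 14.8% of its 75-base windows, so its count is uncertain to that extent.

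*Gstm7*, much less expressed, had 5.09, 4.55 and 3.52 CPM with vehicle and 1.21, 1.54 and 0.982 CPM with TGFβ. Again no vehicle library reached down to the TGFβ group. The log2 fold change was -1.82 (standard error 0.21, edgeR adjusted p = 0.000466).

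*Gstm2*, the glutathione transferase with the most counts, had 176, 185 and 167 CPM with vehicle and 117, 133 and 119 CPM with TGFβ. It fell by 0.52 on the log2 scale (standard error 0.06, edgeR adjusted p = 0.000536), a smaller change than that of *Gstm1*, with groups that were still separate. *Gstm5* and *Gstm4* moved by similar amounts, with log2 fold changes of -0.46 (standard error 0.04, edgeR adjusted p = 0.000103) and -0.35 (standard error 0.06, edgeR adjusted p = 0.00271). *Gstm5* shares 393 bases with 4933431E20Rik, an antisense gene whose log2 fold change was -0.41, and whether strand was used in counting is not given in the sources used here.

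Per kb of exon, *Gstm1* stood at 0.645 to 0.772 of the level of *Gstm2* with vehicle and at 0.286 to 0.362 with TGFβ. These ranges did not overlap.

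**Figure D2:**
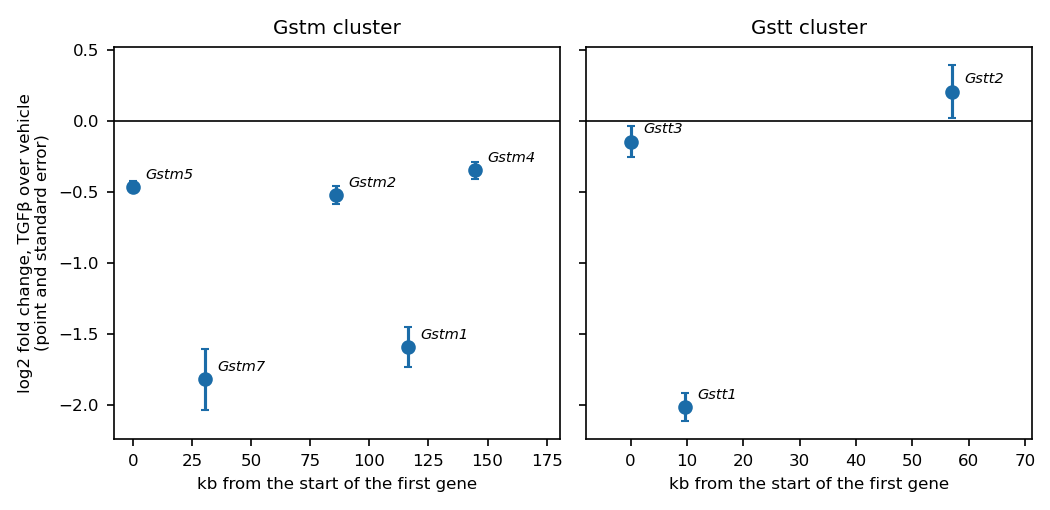
Log2 fold change of TGFβ over vehicle (y axis, point and standard error) against the distance of each gene from the start of the first gene of its cluster (x axis, kb), for the *Gstm* cluster on chromosome 3 and the *Gstt* cluster on chromosome 10. *Gstm7* (-1.82) and *Gstm1* (-1.59) lie well below the other 3 *Gstm* genes, and *Gstt1* (-2.01) below *Gstt3* (-0.14) and *Gstt2* (0.21).

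The theta class, whose enzymes conjugate small halogenated compounds among others, was uneven. *Gstt1* had 25.8, 28.2 and 22.4 CPM with vehicle and 6.00, 6.70 and 6.21 CPM with TGFβ. The groups were far apart and the TGFβ libraries lay close together, with a log2 fold change of -2.01 (standard error 0.10, edgeR adjusted p = 1.00e-05). Its neighbours within 63.3 kb of chromosome 10 did not pass the test. *Gstt3* had a log2 fold change of -0.14 (standard error 0.11, edgeR adjusted p = 0.339), and *Gstt2* one of 0.21 (standard error 0.19, edgeR adjusted p = 0.415). Per kb of exon, *Gstt1* exceeded *Gstt3* by 6.69 to 8.66 times with vehicle and by 1.95 to 2.41 times with TGFβ. These ratios depend on the length used. With the longest transcript as the length, the means of *Gstt1* and *Gstt3* were 23.0 and 4.22 CPM per kb with vehicle. With TGFβ they were 5.70 and 3.83 CPM per kb.

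In the alpha class, *Gsta3*, known in the mouse for conjugating the epoxide of aflatoxin, had 32.2, 48.1 and 54.0 CPM with vehicle and 12.1, 19.9 and 22.0 CPM with TGFβ. The libraries of each group were widely spread, but the groups were apart. The log2 fold change was -1.31 (standard error 0.25, edgeR adjusted p = 0.00425). *Gsta4*, which conjugates the lipid peroxidation product hydroxynonenal, varied widely between replicates, with a log2 fold change of 0.31 and a standard error of 0.43 (edgeR adjusted p = 0.607). Its counts were 189, 84 and 62 with vehicle and 165, 139 and 71 with TGFβ.

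*Gsto1* moved the other way. It encodes an omega class enzyme with thiol transferase and dehydroascorbate reductase activity. The bases before its start, shown because it was the glutathione transferase that rose, held no match to either sequence within the stretch printed.
Gsto1 (chr19:47854850-47854969, plus strand): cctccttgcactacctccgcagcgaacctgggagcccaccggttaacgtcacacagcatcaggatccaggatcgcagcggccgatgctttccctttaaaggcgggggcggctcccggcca
*Gsto1* had 72.1, 59.0 and 61.5 CPM with vehicle and 153, 133 and 153 CPM with TGFβ. Every TGFβ library lay well above the vehicle range, and the mean rose from 64.2 ± 6.95 CPM (SD, n = 3) to 146 ± 11.6 CPM. The log2 fold change was 1.19 (standard error 0.09, edgeR adjusted p = 5.68e-05). The gene lies wholly within the span of *Cfap43* on the opposite strand, which rose by 0.64 on the log2 scale (edgeR adjusted p = 0.000395). Overlap of their exons was not examined and the strand setting of the counting is not given. Whether reads of *Cfap43* entered the count of *Gsto1* is therefore not known. Relative to *Gstm2* per kb of exon, *Gsto1* stood at 0.264 to 0.339 with vehicle and at 0.829 to 1.08 with TGFβ.

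Of the remaining enzymes, *Gstk1*, the kappa class enzyme of mitochondria and peroxisomes, fell by 0.75 on the log2 scale (standard error 0.12, edgeR adjusted p = 0.00200). *Gstp1*, the pi class enzyme, had a log2 fold change of -0.22 (standard error 0.12, edgeR adjusted p = 0.206). It shares 57.7% of its 75-base windows with *Gstp2* and 37.1% with the pseudogene *Gstp-ps*, which itself held 5574 counts, so its value is uncertain. *Gstp2* and *Gstp-ps* were themselves called lower, with log2 fold changes of -1.15 (edgeR adjusted p = 0.00791) and -0.25 (edgeR adjusted p = 0.0189). With their counts and those of *Gstp1* summed the log2 fold change was -0.25 (edgeR adjusted p = 0.0564). Leaving out the TGFβ library of 28641986 counts took *Gstp1* past the threshold (-0.38, edgeR adjusted p = 0.0166).

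Both selected microsomal enzymes were called lower, against 21.4% of all tested genes with a mean count of at least 50. *Mgst2*, under that minimum, had 7, 4 and 9 counts with vehicle and 3, 5 and 10 with TGFβ. *Mgst1*, a membrane enzyme of the endoplasmic reticulum and mitochondria with transferase and peroxidase activity, had 168, 181 and 170 CPM with vehicle and 55.9, 83.9 and 66.9 CPM with TGFβ. The vehicle libraries lay close together and the TGFβ libraries were more spread, without overlap. The log2 fold change was -1.33 (standard error 0.13, edgeR adjusted p = 0.000197). *Mgst3* was far lower in level and fell by 0.39 on the log2 scale (standard error 0.11, edgeR adjusted p = 0.0241), a call lost with DESeq2 (adjusted p = 0.0614) and without any 1 library other than the vehicle library of 31072338 counts or the TGFβ library of 28641986 counts (edgeR adjusted p up to 0.0800).

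**Figure D3:**
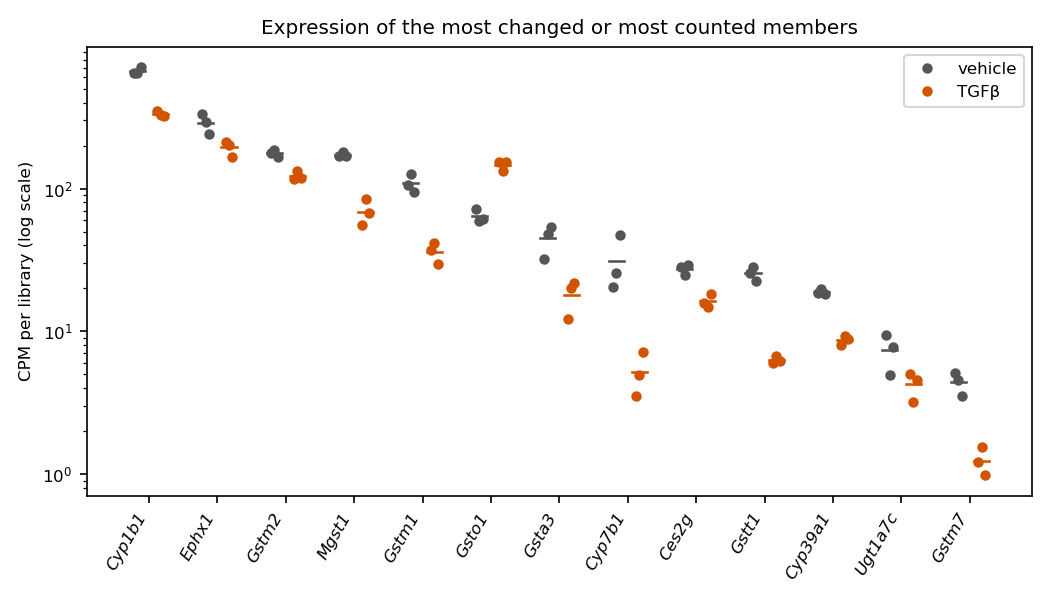
CPM (y axis, log scale) of the 13 genes given in full, with 1 point per library and a bar at the mean of the 3 libraries of a group. *Gsto1* alone has its TGFβ points above the vehicle points, and *Ugt1a7c* is the gene whose groups overlap, with a lowest vehicle value of 4.96 CPM and a highest TGFβ value of 5.01 CPM.

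Among the 15 selected cytochromes P450, 5 fell, 2 rose and 8 did not pass, with a median log2 fold change of -0.20. Over all tested genes with a mean count of at least 50, 21.4% were called lower and 23.3% higher. *Cyp1b1*, an enzyme outside the liver that oxidizes polycyclic aromatic hydrocarbons and oestradiol, had the most counts of the whole set. Its promoter is shown because the gene is a textbook target of the aryl hydrocarbon receptor, and it held 1 match to GCGTG, read on the opposite strand as the capitals.
Cyp1b1 (chr17:79715062-79715181, minus strand): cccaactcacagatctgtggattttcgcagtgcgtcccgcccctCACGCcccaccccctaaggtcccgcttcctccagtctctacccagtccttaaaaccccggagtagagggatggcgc
The windows searched, 250 bases before each start, covered 26 of the 34 genes with 31 annotated starts. GCGTG occurred in 10 of these 31 windows (32.3%) and in 28.2% of all 32851 promoter windows, and TGACNNNGC in 4 (12.9%) and in 10.2%. These are matches of letters only.

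*Cyp1b1* had 644, 639 and 705 CPM with vehicle and 352, 328 and 324 CPM with TGFβ. Each TGFβ library lay well below the vehicle range, and the mean went from 663 ± 36.8 CPM (SD, n = 3) to 334 ± 15.0 CPM. Its log2 fold change was -0.99 (standard error 0.06, edgeR adjusted p = 2.01e-05). The related *Cyp1a1* and *Cyp1a2*, named here after their values were seen, were each counted once over the 6 libraries.

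The 2 selected P450 genes that fell by 1 or more act on sterols. *Cyp51*, a sterol P450 outside the symbol patterns, rose from 296 ± 31.9 CPM (SD, n = 3) to 408 ± 9.63 CPM. Its log2 fold change was 0.46 (standard error 0.08, edgeR adjusted p = 0.00231). *Cyp7b1* hydroxylates oxysterols in the alternative route to bile acids, and it had 20.4, 25.4 and 47.2 CPM with vehicle and 3.55, 4.91 and 7.19 CPM with TGFβ. The groups were far apart although the vehicle libraries differed widely. The mean fell from 31.0 ± 14.2 CPM (SD, n = 3) to 5.21 ± 1.84 CPM, and the log2 fold change was -2.57 (standard error 0.37, edgeR adjusted p = 0.00118). With 1 library left out at a time it stayed between -2.88 and -2.13. The vehicle library with the highest *Cyp7b1*, that of 29331999 counts, also had the highest sums of several marker lists. These were the fibroblast (63310 CPM), endothelial (645 CPM) and leukocyte (344 CPM) markers, and the part of this in the result was not tested.

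*Cyp39a1*, an oxysterol hydroxylase too, varied little, with 18.5, 19.8 and 18.3 CPM in the vehicle libraries and 8.08, 9.20 and 8.77 CPM in the TGFβ libraries. The groups were well separated, and the log2 fold change was -1.12 (standard error 0.07, edgeR adjusted p = 3.05e-05). *Cyp27a1*, the mitochondrial sterol hydroxylase, had a log2 fold change of 0.23 (edgeR adjusted p = 0.177), and *Cyp2r1*, which hydroxylates vitamin D, one of -0.20 (edgeR adjusted p = 0.389).

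Of the 5 selected genes of the *Cyp4* family, whose members hydroxylate fatty acids, 1 rose, 1 fell and 3 did not pass. These shares were near those of all tested genes with a mean count of at least 50, 23.3% higher and 21.4% lower. *Cyp4f16* rose from 15.5 ± 0.759 CPM (SD, n = 3) to 22.5 ± 0.698 CPM (log2 fold change 0.54, standard error 0.06, edgeR adjusted p = 0.000354). It lies beside *Cyp4f17* on chromosome 17, where the log2 fold change was 0.04 (edgeR adjusted p = 0.690). *Cyp4f16* shares 16.1% of its windows with other genes, mostly *Cyp4f37*, which had a single count. *Cyp4v3* fell by 0.47 (standard error 0.11, edgeR adjusted p = 0.00978).

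*Cyp4f13* and *Cyp4b1* did not pass, at -0.46 (edgeR adjusted p = 0.0542) and -0.11 (edgeR adjusted p = 0.723). *Cyp4f13* lay near the threshold, and DESeq2 placed it past (adjusted p = 0.0484). *Cyp2j6* and *Cyp2j9*, relatives of arachidonic acid epoxygenases, had log2 fold changes of 0.19 (edgeR adjusted p = 0.0555) and -0.44 (edgeR adjusted p = 0.0761). Neither passed. In both the groups were apart, in opposite directions, but 27.2% of all genes tested had every TGFβ library above and 26.1% every one below. *Cyp2d22* fell by 0.29 (standard error 0.09, edgeR adjusted p = 0.0349), a call lost without any 1 library other than the vehicle library of 29331999 counts (edgeR adjusted p 0.0634 to 0.106), and *Cyp2u1* had a log2 fold change of -0.04 (edgeR adjusted p = 0.683). *Cyp20a1*, a P450 without an established substrate, rose from 55.5 ± 2.30 CPM (SD, n = 3) to 69.7 ± 1.20 CPM (log2 fold change 0.33, standard error 0.04, edgeR adjusted p = 0.000793).

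The hydrolases fell where they were called. *Ephx1*, the microsomal epoxide hydrolase, had 330.2, 292 and 240.2 CPM with vehicle and 213, 203 and 166 CPM with TGFβ. The highest TGFβ library lay below the lowest vehicle library by a narrow margin. The log2 fold change was -0.57 (standard error 0.13, edgeR adjusted p = 0.0101). *Ephx2*, the soluble enzyme that hydrolyses fatty acid epoxides, had a log2 fold change of 0.06 (edgeR adjusted p = 0.737).

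*Ces2g*, a carboxylesterase, had 28.1, 24.6 and 29.4 CPM with vehicle and 15.9, 14.7 and 18.2 CPM with TGFβ. Its groups were apart, with a log2 fold change of -0.75 (standard error 0.10, edgeR adjusted p = 0.000749). *Ugt1a7c*, the glucuronosyltransferase counted most, had 9.40, 4.96 and 7.78 CPM with vehicle and 5.01, 3.22 and 4.60 CPM with TGFβ, and the groups overlapped. Its log2 fold change was -0.79 (standard error 0.25, edgeR adjusted p = 0.0387), a call lost with limma-voom (adjusted p = 0.0581) and without any 1 library other than the vehicle library of 29296570 counts (edgeR adjusted p up to 0.118). Because genes of the *Ugt1a* locus share their last exons, 69.1% of the windows of *Ugt1a7c* also occur in other genes. Of the partners sharing at least 10% of windows, only *Ugt1a6b* (29 counts), *Ugt1a6a* (16) and *Ugt1a1* (1) were listed. With these few counts summed the log2 fold change was -0.83 (edgeR adjusted p = 0.0340), which hardly tests the sharing. *Dnajb3* (334 counts) lies within the span of *Ugt1a7c* on the opposite strand and rose by 0.68 on the log2 scale (edgeR adjusted p = 0.0114). Overlap of their exons was not examined and the strand setting is not given.

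Scaled to exon length, the most abundant transcripts with vehicle were *Ephx1* at 147 CPM per kb, *Cyp1b1* at 113, *Gstm2* at 105, *Mgst1* at 85.9 and *Gstm1* at 73.9 CPM per kb. In the individual vehicle libraries *Ephx1* lay between 123 and 169 CPM per kb, all above the range of *Cyp1b1*, 109 to 121 CPM per kb. *Cyp1b1* and *Gstm2* (99.4 to 110 CPM per kb) overlapped. With the longest transcript as the length instead, *Gstm2* came first, at 166 CPM per kb, and *Ephx1* next, at 165 CPM per kb. By exon length and with TGFβ, *Gsto1* rose from rank 7 to rank 3 (31.7 to 72.3 CPM per kb), and *Gstt1* went from rank 10 to 19 and *Cyp7b1* from 11 to 24. With the longest transcript as the length *Gsto1* stood at 54.3 CPM per kb with vehicle and 124 CPM per kb with TGFβ, then above *Gstm2* (116 CPM per kb) and *Ephx1* (111 CPM per kb).

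**Figure D4:**
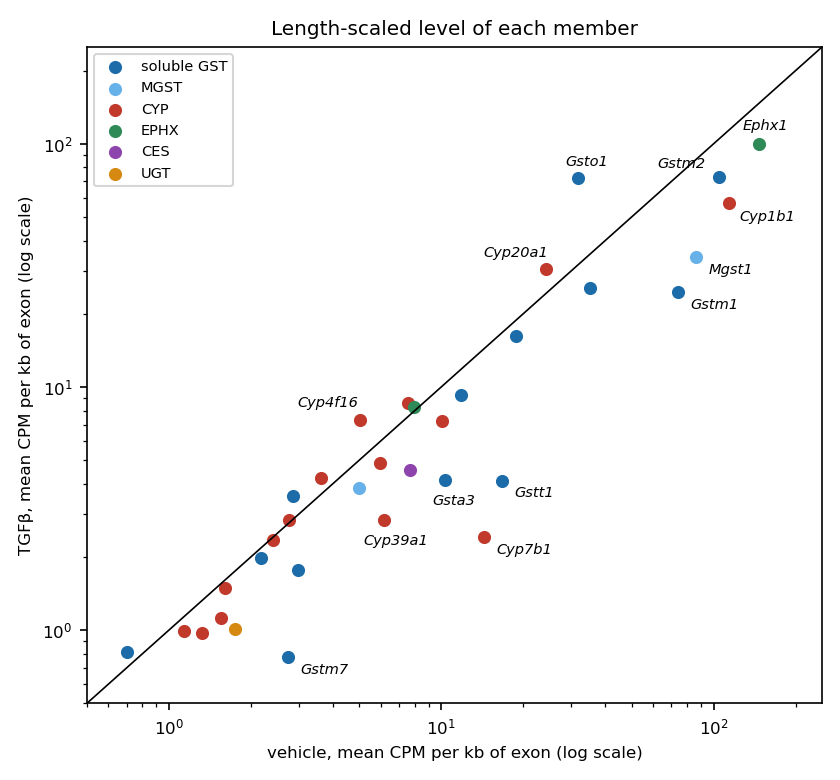
Mean CPM per kb of exon with TGFβ (y axis, log scale) against that with vehicle (x axis, log scale), with 1 point per gene coloured by enzyme class and a line of equal level. *Gsto1* lies above the line (31.7 to 72.3 CPM per kb), and *Cyp7b1*, *Gstt1*, *Gstm1* and *Gstm7* lie furthest below it.

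Summed over the 34 genes, the level was 785, 790 and 741 CPM per kb in the vehicle libraries and 524, 540 and 509 CPM per kb in the TGFβ libraries. Every class had a lower mean sum with TGFβ. Soluble glutathione transferases went from 315 to 238 CPM per kb, cytochromes P450 from 201 to 135, epoxide hydrolases from 155 to 108 and microsomal glutathione transferases from 90.9 to 38.1. The share of the microsomal enzymes in the total went from 11.8% to 7.26%, and that of the soluble transferases from 40.8% to 45.4%. The soluble share includes *Gsto1*, which went from 31.7 to 72.3 CPM per kb. It was the only one of the 13 soluble transferases called higher, while 8 were called lower. Whether its count holds reads of *Cfap43* is not known.

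Genes that serve these enzymes were counted from lists made for the purpose, against the same 20.1% lower and 20.5% higher over all genes. Of 8 xenobiotic receptors and their partners tested, 4 fell and none rose (edgeR): *Nr3c1*, the glucocorticoid receptor (-0.40), *Rxra* (-0.38), *Tiparp*, a target and repressor of the aryl hydrocarbon receptor (-0.37), and *Arnt* (-0.22). *Ahr* itself had a log2 fold change of -0.25 and did not pass. Among 7 genes of the NRF2 system, *Bach1* (-0.43) and *Nfe2l2*, which encodes NRF2 (-0.24), fell, *Mafg* rose (0.30) and 4 did not pass. The electron donors of cytochromes P450 were mostly lower, with 5 of 8 falling, led by *Fdxr* (-1.01) and *Cyb5a* (-0.77), and *Cyb5r1* rising (0.48). The rest of the donors that fell changed little, with log2 fold changes from -0.21 to -0.12.

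Genes that supply the cosubstrates went the other way, with 5 of 11 rising, none falling and 6 not passing. The 5 were *Papss2* (0.76) and *Papss1* (0.19), which make the sulfate donor PAPS, *Gss* (0.57) and *Gclc* (0.25) of glutathione synthesis, and *Slc7a11* (0.48), the cystine transporter. Among 8 transporters that export conjugates or drugs, 4 fell and 1 rose, with *Slc22a18* at -1.08 and *Abcb1b* at -0.63. Of 20 other enzymes tested, 8 fell and 3 rose, with *Cyp51* among the 3. *Aldh3a1*, an aldehyde dehydrogenase, had the largest change of these, -2.90, followed by *Ptges* (-1.41) and *Aox1*, the aldehyde oxidase (-1.15).

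Flavin monooxygenases, a separate family that oxidizes nitrogen and sulfur in drugs, were called lower in *Fmo1*, *Fmo2* and *Fmo5*. *Fmo1* had 20.6, 25.3 and 27.9 CPM with vehicle and 2.81, 2.54 and 2.63 CPM with TGFβ, a log2 fold change of -3.20 (standard error 0.14). *Fmo2* was at -3.13 (standard error 0.28) and *Fmo5* at -1.10. *Fmo4* had 0.943, 0.809 and 0.771 CPM with vehicle and 0.183, 0.286 and 0.386 CPM with TGFβ. It passed the filter on low counts through the vehicle libraries, which favoured a fall. Its log2 fold change of -1.54 is therefore given as a value only. Over the 66 genes tested in all of these lists, *Fmo4* included, 27 were lower and 11 higher. Of all genes tested, 20.1% were lower and 20.5% higher. Because the lists were chosen with earlier results of these data known, this count is a description only.

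**Figure D5:**
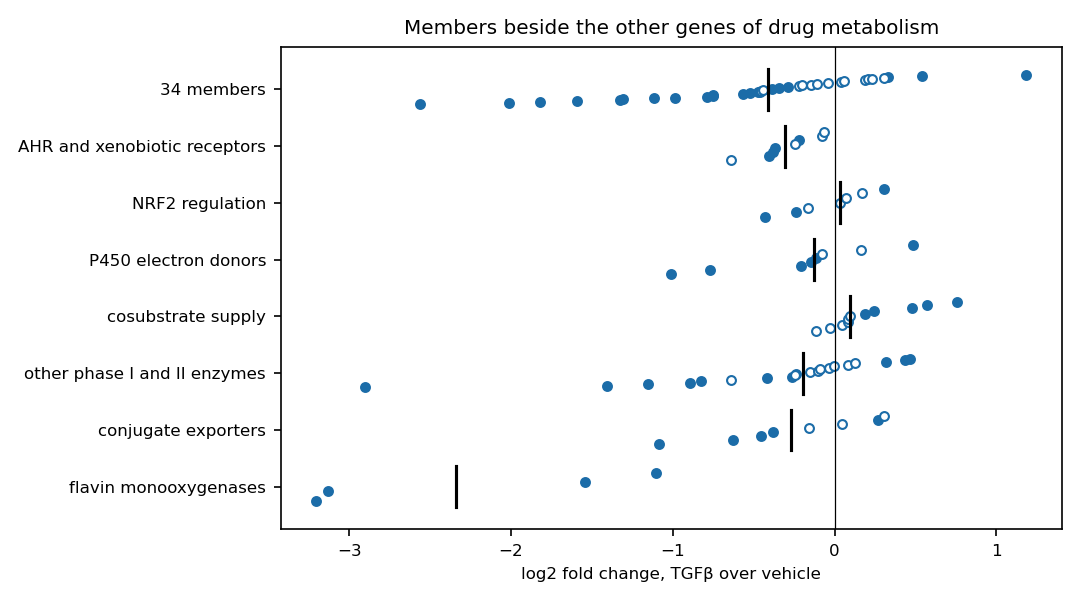
Log2 fold change of TGFβ over vehicle (x axis) for the 34 genes and for each list of related genes, with 1 point per gene, filled where the adjusted p was under 0.05 in edgeR's test, and a bar at the median of the list. The medians are -0.41 for the 34 genes, 0.10 for cosubstrate supply and -2.34 for the flavin monooxygenases, *Fmo4* included.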

How the data were processed

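RNA was measured in 6 libraries, 3 with vehicle and 3 with TGFβ, grouped by the sample labels. Per the labels and the paper's methods, stranded poly(A) libraries were sequenced as single-end reads of 75 bases and aligned to mm10; the aligner, counter, annotation and strand setting are not given in the sources used here. The authors deposited whole-number counts of reads per gene, without normalization, for 25140 genes. Their own comparison columns (normalized mean, fold change, its error, test statistic and p-values) were not used.

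Counts were analysed with edgeR 4.0.16 (R 4.3.3), using TMM factors, a filter on low counts (filterByExpr, 14334 genes kept), the quasi-likelihood test without covariates and Benjamini-Hochberg adjustment over all genes tested, with a threshold of 0.05. The standard error is the log2 fold change over the square root of F. The biological coefficient of variation was 7.97%. CPM are counts over TMM-scaled library sizes. The two-sided exact permutation test of CPM (scipy 1.17.1) has 0.1 as its smallest p with 3 libraries against 3. Library totals were 27851677 to 31072338 counts, and the spread between replicates exceeded counting noise. The fit was checked on simulated counts.

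Positions and exon lengths came from GENCODE M21 (GRCm38), matched for all 34 genes, and promoter sequences from RefSeq (GRCm38.p6). Lengths for CPM per kb are the union of a gene's exons. Shared reads were gauged as the share of 75-base windows of the longest transcript that occur in transcripts of other genes.

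The members and lists were chosen with earlier results of these data known. Given in full were called members that changed by 1 or more on the log2 scale and the most counted member of each class, and from each list of related genes at most 5 called genes, the largest first. *Cyp51* was given besides, as a P450 that the symbol patterns left out. Alternatives were DESeq2 1.42.0, limma-voom (limma 3.58.1), DESeq2 size factors or upper quartile scaling in edgeR, other filters and thresholds, other minimum counts, each library left out, counts summed with those of genes that share reads, and the longest transcript as the length.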

Additional observations from a re-analysis of the deposited data

How the results depend on the processing

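No paired analysis was possible because the count columns name the group but no replicate number. The number of members called higher was 3 under every alternative except a log2 fold change beyond 1, which left 1 higher and 7 lower. The number called lower was 18 with DESeq2, 17 with limma-voom, 19 with upper quartile scaling and 19 without a filter on low counts, 14 at an adjusted p under 0.01, 19 with a minimum mean count of 20 and 14 with 200. Leaving out 1 library at a time gave 15 to 18 lower and 3 higher. Of the 21 called members, 18 kept their call at the same threshold under every other scaling, tool, filter and left-out library, the exceptions being *Ugt1a7c*, *Mgst3* and *Cyp2d22*, and none was called in opposite directions. The sign turned for 3 members that no alternative called, with 1 library left out at a time: *Ephx2* ranged from -0.034 to 0.16 (negative without the vehicle library of 29331999 counts, at -0.019, or the TGFβ library of 28894151 counts), *Cyp4b1* from -0.35 to 0.018 (positive without that vehicle library or the TGFβ library of 27851677 counts) and *Gstt2* from -0.022 (without the TGFβ library of 28641986 counts) to 0.32. *Cyp4f13* passed the threshold under 5 alternatives, among them leaving out the vehicle library of 29331999 counts or the TGFβ library of 28641986 counts, and *Cyp2j9* without the TGFβ library of 28894151 counts (adjusted p = 0.0353 with edgeR). The cause was not tested. With groups of 3, no test for a single outlying library was made. Depth limits the members of few counts, such as *Cyp2r1*, *Gstt2* and *Gstm7*, and the genes under the minimum.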

Other observations

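Of the 91 genes matched by name, 57 had a mean count under 50, of which 43 were under 5 and 30 under 1. Among these 57, 6 passed the filter on low counts and 3 of them fell (edgeR), where 20.1% of all genes tested were called lower. These were *Cyp4f14*, with a log2 fold change of -1.84 (adjusted p = 0.00330), *Gstm6*, of the mu class, with -1.30 (adjusted p = 0.00644), and *Gstp2* with -1.15 (adjusted p = 0.00791). *Cyp4f14*, with counts of 11, 13 and 12 with vehicle and 3, 3 and 3 with TGFβ, and *Gstm6*, with 29, 29 and 23 and 12, 11 and 7, passed the filter through the vehicle libraries, which favoured a fall, so their calls are given as values only. *Gsto2*, the paralogue of *Gsto1*, had counts of 22, 24 and 26 with vehicle and 33, 31 and 31 with TGFβ, and did not pass (log2 fold change 0.52, adjusted p = 0.0577). The genes of this paragraph were chosen as the tested ones and those next to the minimum.

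The sulfotransferases were near absent. The most counted of the 5 listed was *Sult4a1*, with 13, 10 and 4 counts with vehicle and 14, 10 and 9 with TGFβ. *Cyp2s1*, which did not pass the filter, had 77, 8 and 24 counts with vehicle and 5, 4 and 0 with TGFβ, so that 1 vehicle library held most of its counts.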
